A study of Mus musculus with 2 samples.

Results

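The genes described here encode 7 intracellular signaling proteins placed downstream of LAIR1 and related inhibitory receptors, namely the phosphatases Ptpn6 (SHP-1), Ptpn11 (SHP-2) and Inpp5d (SHIP-1), the kinases Csk, Syk and Camk1, and the transcription factor Creb1. They were picked by gene symbol, and all 7 were found among the 27998 genes counted. Their RNA was measured by droplet-based scRNAseq of RNA 3' ends in live CD45+ cells sorted from B16 melanoma tumors, with 1 library from mice treated with the antagonist anti-LAIR1 antibody h219-LLG and 1 library from mice treated with the isotype control antibody. Mice of both groups were C57BL/6J, carried a human LAIR1 transgene switched on in blood cells by Vav-cre and lacked mouse LAIR1 (mLAIR1-/-). Their age was 6 to 8 weeks according to GEO. For tumors, each mouse received 500000 B16 cells under the skin, antibody was given at 10 mg/kg from day 5 every 4 days for 3 doses, and tumors were taken at day 16. h219-LLG carries Fc mutations that remove Fc effector functions, so it blocks human LAIR1 without recruiting killer cells. Vav-cre acts in hematopoietic cells as a whole, so human LAIR1 was not confined to the cell types that carry it naturally. The human transgene was not analysed here, and no source used here says how many mice went into a library. With 1 library per group there is no replicate, no test was made, and every interval below is a 95% interval that covers counting error only.

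LAIR1 is a collagen receptor of leukocytes whose cytoplasmic tail holds immunoreceptor tyrosine-based inhibitory motifs (ITIMs). When these tyrosines are phosphorylated by Src family kinases they bind SHP-1 and SHP-2, and Csk can also dock there. The phosphatases remove phosphate from activating proteins that Syk or its relative Zap70 have phosphorylated below ITAM-bearing receptors such as the B and T cell receptors, SHIP-1 removes a phosphate from the lipid product of PI3K, and Csk switches Src family kinases off by phosphorylating their tails. Camk1 is activated by calcium-bound calmodulin and can phosphorylate Creb1, which drives genes with cAMP response elements. Much of this control acts on protein phosphorylation, which RNA counts do not measure.

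Cells with at least 500 UMIs (unique molecular identifiers, tags that mark captured RNA molecules), at least 200 genes and under 10% mitochondrial UMIs were kept, which left 7433 cells with h219-LLG (median 5050 UMIs) and 5607 with control antibody (median 5796 UMIs). The libraries were not equal in quality, since 15.2% of barcodes with h219-LLG and 8.17% with control antibody had at least 10% mitochondrial UMIs. Of the deposited barcodes, 13 occurred in both libraries, and 9 of these were kept. A UMI of Ptprc, which encodes CD45, was found in 93.6% of kept cells with h219-LLG and 93.5% with control antibody, so the sorted label held. Each cell was then placed in 1 of 18 gates by marker UMIs, and 71.8% of kept cells with h219-LLG and 71.5% with control antibody fell in a gate. Markers that the gates did not use were mostly highest in the gate they belong to (Gzma in NK cells, Ccr9 in plasmacytoid dendritic cells, Ikzf2 in Tregs, Retnlg in neutrophils), with exceptions. Mgl2, a marker of type 2 dendritic cells, was at 253 CPM (UMIs of the gene per 1000000 UMIs of the gate) with h219-LLG and 9.02 CPM with control antibody in that gate of 18 and 8 cells. Fcer2a- B cells were led by Jchain and hemoglobin genes.

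The promoters of a broadly expressed and of a leukocyte-restricted member are shown, because Ptpn11 was the most even member over the gates and Inpp5d one of the most uneven, and each holds a motif of interest. Ptpn11 lies on chromosome 5 from 121130533 to 121191397 (minus strand) and Inpp5d on chromosome 1 from 87620312 to 87720507 (plus strand) of mm10. The windows run from 250 bases before to 50 after the RefSeq start on GRCm38.p6, at chr5:121191348-121191647 (minus strand) and chr1:87620062-87620361 (plus strand). Capitals mark TGACGTCA, the full cAMP response element to which Creb1 binds, in Ptpn11, and GAGGAAGT, a sequence of the kind bound by the blood cell factor PU.1, in Inpp5d.
Ptpn11: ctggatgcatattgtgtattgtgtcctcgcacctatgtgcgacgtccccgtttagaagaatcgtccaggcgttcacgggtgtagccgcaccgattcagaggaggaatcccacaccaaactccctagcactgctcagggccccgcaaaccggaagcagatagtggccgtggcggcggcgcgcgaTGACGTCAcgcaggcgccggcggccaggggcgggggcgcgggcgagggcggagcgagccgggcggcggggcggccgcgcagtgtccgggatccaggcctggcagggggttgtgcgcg
Inpp5d: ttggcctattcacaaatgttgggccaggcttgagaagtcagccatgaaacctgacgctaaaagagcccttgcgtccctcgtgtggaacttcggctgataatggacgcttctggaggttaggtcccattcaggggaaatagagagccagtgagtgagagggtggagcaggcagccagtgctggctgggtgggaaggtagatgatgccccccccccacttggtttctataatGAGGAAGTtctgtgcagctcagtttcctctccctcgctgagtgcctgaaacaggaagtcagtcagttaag
The cAMP response element begins at position -67 and the PU.1-type sequence at position -20 from the start. Both sequences were chosen after the promoters had been read and were searched on both strands. TGACGTCA occurred in 1.79% and GAGGAAGT or its complement ACTTCCTC in 3.20% of 32851 promoter windows of the same length. Of the 9 windows of the 7 members, the 2 printed held one of these sequences. A match is a description of the letters and not a shown binding site. The other members lie on chromosome 6 (Ptpn6, 124720707 to 124738714, and Camk1, 113334124 to 113343984), chromosome 9 (Csk, 57626646 to 57653631), chromosome 13 (Syk, 52583173 to 52648792) and chromosome 1 (Creb1, 64532645 to 64604548), and all 7 are protein-coding. Camk1 overlaps Ogg1 on the opposite strand, and Ogg1 itself had only 108 UMIs with h219-LLG and 71 with control antibody.

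Syk was the member with the sharpest cell type pattern. Syk is the kinase that binds phosphorylated ITAMs in B cells and myeloid cells. Fcer2a+ B cells had 549 CPM with h219-LLG (529 to 569) and 527 CPM with control antibody (508 to 548), and Fcer2a- B cells had 573 CPM and 509 CPM. Neutrophils followed at 404 CPM with h219-LLG and 399 CPM with control antibody, and patrolling monocytes at 374 CPM and 289 CPM. Over the 5 T cell gates, 62 Syk UMIs were counted in 2499 cells with h219-LLG (3.89 CPM) and 38 in 1808 cells with control antibody (2.80 CPM). B cells thus stood more than 100-fold above T cells in both libraries, and no T cell gate exceeded 13.2 CPM. Syk was at 0 UMIs in the 23 B16 melanoma cells of either library, which allows up to 3 counts, or 18.9 CPM with h219-LLG and 68.9 CPM with control antibody.

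Between these extremes Syk ran from plasmacytoid dendritic cells (235 CPM with h219-LLG and 271 CPM with control antibody) through classical monocytes (256 and 194 CPM), C1q macrophages (161 and 127 CPM) and NK cells (100 and 83.5 CPM) to type 1 dendritic cells (86.9 and 89.9 CPM). In this order the step from type 1 dendritic cells to Tregs was the one that neighboring gates made in both libraries without overlap of their intervals. Over all 153 pairs of gates, 107 were apart in both libraries for Syk, more than for any other member. The pattern was also there at equal depth. After each cell was thinned to 1000 UMIs, leaving out 1 shallower cell in each library, a Syk UMI was left in 40.2% of Fcer2a+ B cells with h219-LLG and 39.7% with control antibody, and in 0 of 530 and 0 of 378 CD4 naive T cells. Before thinning these shares were 80.5% with h219-LLG (median depth 3565 UMIs) and 84.0% with control antibody (4352.5 UMIs) in Fcer2a+ B cells. In CD4 naive T cells they were 0.753% (5546 UMIs) and 1.59% (6498 UMIs), which sets the background for the other gates.

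Zap70, the other kinase of the Syk family, had the opposite distribution. In CD8 effector and memory T cells it stood at 63.0 CPM with h219-LLG and 61.2 CPM with control antibody, and in NK cells at 83.6 and 81.9 CPM. In Fcer2a+ B cells it stood at 2.31 and 2.56 CPM. NK cells were the one gate of the 18 in which both family members exceeded 50 CPM in both libraries. Over all kept cells Zap70 had 39.0 CPM in each library, a ratio of 1.00 (0.934 to 1.07).

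**Figure D1:**
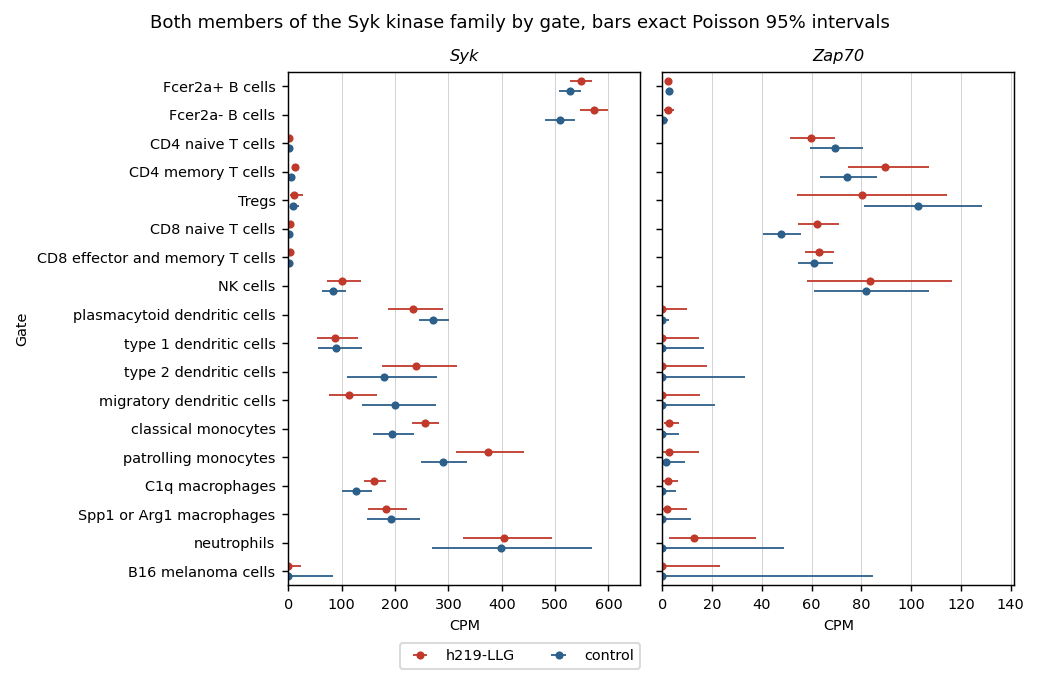
CPM of Syk (left) and Zap70 (right) in 18 gates, for the h219-LLG library (red, upper point of each row) and the control library (blue, lower point), with exact Poisson 95% intervals. Syk fills B cells, neutrophils, monocytes, macrophages and dendritic cells and Zap70 fills T cells, and NK cells hold both.

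Ptpn6 encodes SHP-1, the main phosphatase recruited by ITIMs in blood cells, and was found in every leukocyte gate. It was highest in plasmacytoid dendritic cells, at 390 CPM with h219-LLG (329 to 460) and 388 CPM with control antibody (356 to 423), where 90.0% of 40 cells (median depth 9219 UMIs) and 96.4% of 111 cells (12106 UMIs) had a UMI. Patrolling monocytes had 294 and 275 CPM, and classical monocytes 274 and 192 CPM. T cells were the low end among the large gates. CD8 naive T cells had 58.8 CPM with h219-LLG and 74.1 CPM with control antibody, and CD4 naive T cells had 73.6 and 79.9 CPM. In B16 melanoma cells, which are not blood cells, Ptpn6 was counted 4 times with h219-LLG and once with control antibody, in 3 and 1 of 23 cells, whose median depths were 1240 and 1444 UMIs, and no expression can be read from such counts. No neighbors in the order of gates were apart in both libraries, but 80 of the 153 pairs were, so the order is a gradient from plasmacytoid dendritic cells and monocytes through B cells to T cells and not a switch.

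Inpp5d encodes SHIP-1, which acts on the PI3K product in blood cells and is best known as the brake used by the inhibitory Fc receptor of B cells. Fcer2a- B cells were highest, at 280 CPM with h219-LLG (262 to 299) and 318 CPM with control antibody (296 to 340), closely followed by Fcer2a+ B cells at 271 and 289 CPM. Myeloid and NK gates were intermediate, with 109 and 160 CPM in patrolling monocytes and 103 and 143 CPM in NK cells. Among T cells it was higher in CD4 memory (76.4 and 83.9 CPM) than in CD4 naive T cells (44.9 and 56.6 CPM), with no overlap of the intervals in either library. Inpp5d was at 0 UMIs in B16 melanoma cells in both libraries, so up to 18.9 CPM with h219-LLG and 68.9 CPM with control antibody remain possible.

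**Figure D2:**
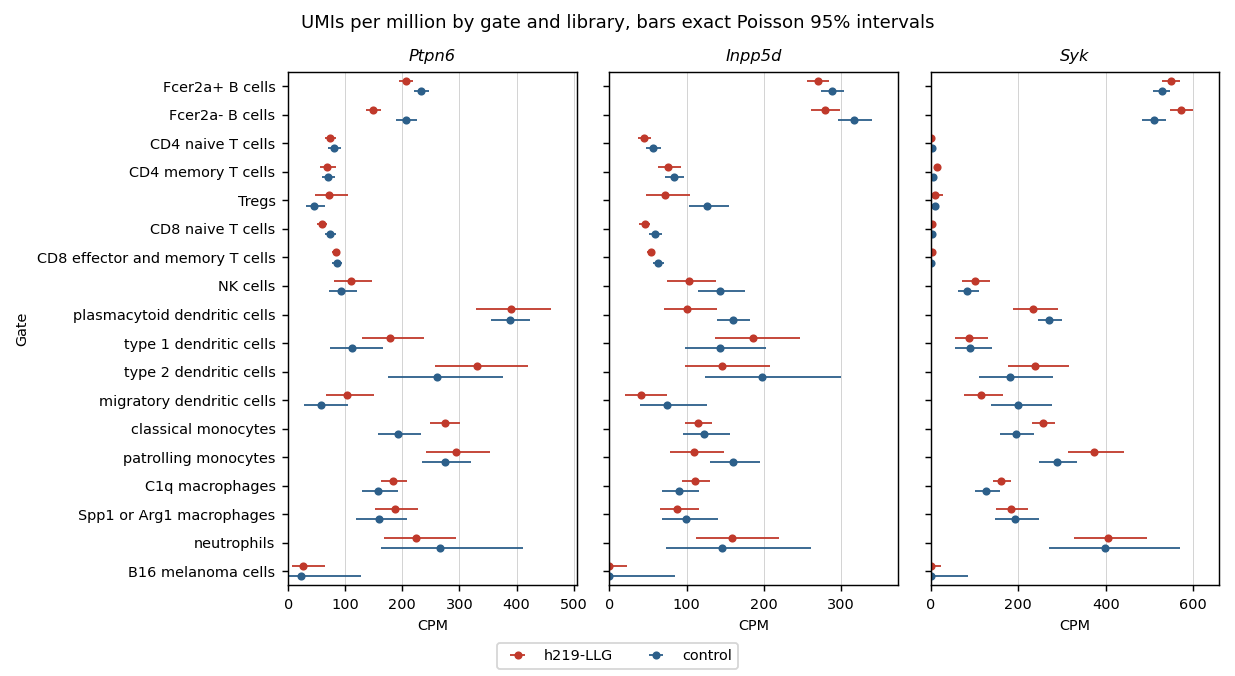
CPM of Ptpn6, Inpp5d and Syk in 18 gates, for the h219-LLG library (red, upper point of each row) and the control library (blue, lower point), with exact Poisson 95% intervals. Ptpn6 peaks in plasmacytoid dendritic cells and Inpp5d and Syk in B cells, and the libraries follow each other in all 3 panels.

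Ptpn11 encodes SHP-2, the broadly expressed relative of SHP-1 which, unlike it, also promotes growth factor signaling. It ran between 12.3 and 58.7 CPM with h219-LLG and between 0 and 54.1 CPM with control antibody over the 18 gates, and 0 of 153 pairs of gates were apart in both libraries. In its largest gate, Fcer2a+ B cells, it had 28.1 CPM with h219-LLG and 38.3 CPM with control antibody. Its evenness therefore stood against the steep patterns of Ptpn6 and Syk, within the precision of counts that were often under 30 UMIs per gate and library.

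Csk and Creb1 were also spread widely. Csk, the negative regulator of Src family kinases, had 164 CPM with h219-LLG and 147 CPM with control antibody in Fcer2a- B cells, 157 and 141 CPM in patrolling monocytes, and 94.0 and 78.1 CPM in CD8 effector and memory T cells. It was lowest among leukocytes in migratory dendritic cells, at 40.9 CPM (10 UMIs) with h219-LLG and 34.2 CPM (6 UMIs) with control antibody. B cells and T cells differed, since the intervals of either B cell gate lay above those of both CD8 T cell gates in both libraries, and 26 of 153 pairs were apart in all. Creb1 was highest in NK cells, at 129 CPM with h219-LLG (97.0 to 168) and 126 CPM with control antibody (99.9 to 157), and 24 of 153 pairs were apart. Spp1 or Arg1 macrophages without C1q were at its low end among leukocytes, with 28.8 CPM (16 UMIs) and 12.4 CPM (4 UMIs).

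Among the leukocyte gates, Camk1 was highest in C1q macrophages in both libraries. C1q macrophages had 84.6 CPM with h219-LLG (70.1 to 101) and 77.4 CPM with control antibody (57.5 to 102), Spp1 or Arg1 macrophages had 43.2 and 37.3 CPM, and classical monocytes had 25.2 and 24.2 CPM. B and T cells were near 0, with 9 UMIs in 2176 B cells and 18 in 2499 T cells with h219-LLG, and 13 in 1689 B cells and 10 in 1808 T cells with control antibody. NK cells were not near 0, with 23.9 CPM with h219-LLG and 15.7 CPM with control antibody (10 UMIs each). The order from C1q macrophages to monocytes to B and T cells held in both libraries, and the intervals of C1q macrophages and of both monocyte gates did not overlap in either. B16 melanoma cells gave 114 CPM with h219-LLG and 45.9 CPM with control antibody, but these were 18 UMIs in 3 of 23 cells and 2 UMIs in 2 of 23 cells.

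The lymphocyte gates that had almost no Camk1 had other calmodulin kinases. Camk4, a kinase of T cells that also phosphorylates Creb1, stood at 97.2 CPM with h219-LLG and 72.7 CPM with control antibody in CD4 naive T cells and at 4.23 and 0.983 CPM in Fcer2a+ B cells. Camk2d was highest in B cells, at 296 and 299 CPM in the Fcer2a+ gate. Camk1d, a paralog of Camk1, was at 277 and 243 CPM in type 1 dendritic cells, where Camk1 had 0 UMIs with h219-LLG and 3 UMIs with control antibody. C1q macrophages, where Camk1 was highest among leukocytes, also had Camk2d (122 and 102 CPM) and Camk1d (61.3 and 43.3 CPM).

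**Figure D3:**
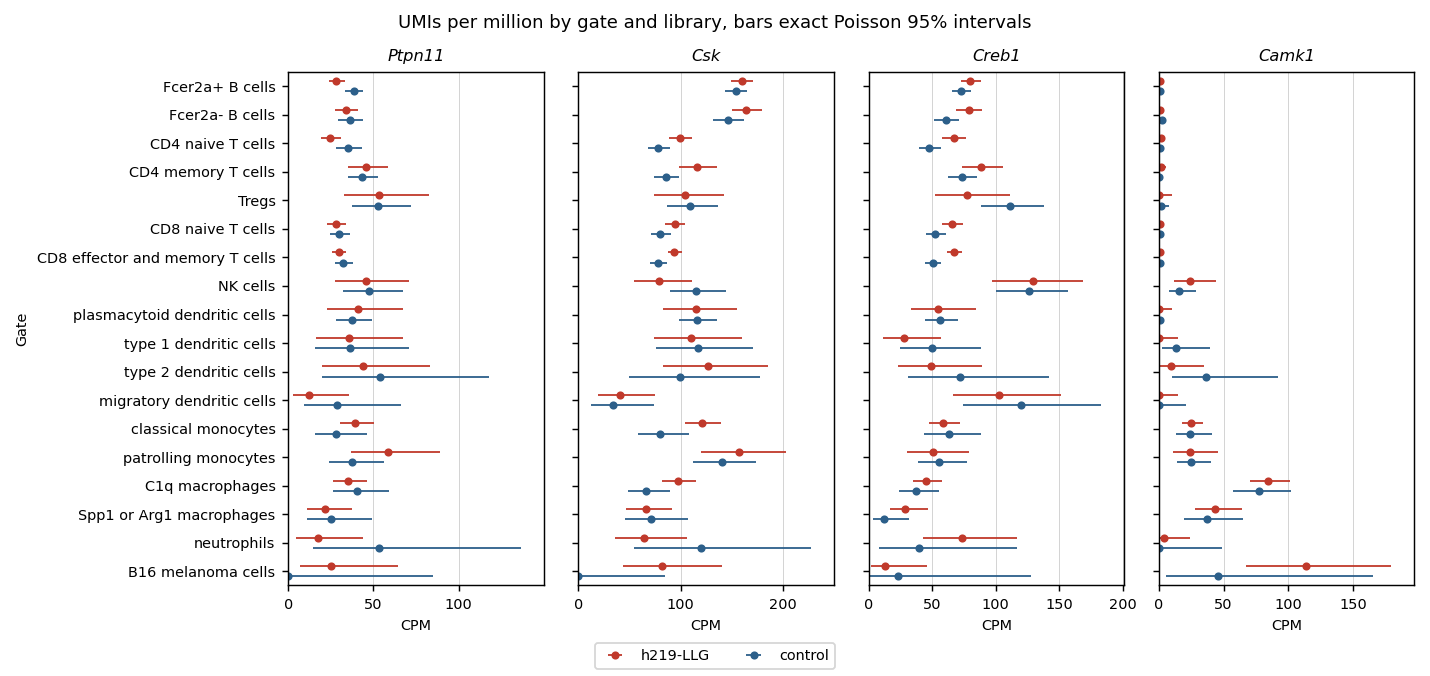
CPM of Ptpn11, Csk, Creb1 and Camk1 in 18 gates, for the h219-LLG library (red, upper point of each row) and the control library (blue, lower point), with exact Poisson 95% intervals. Ptpn11, Csk and Creb1 occur across the gates, and Camk1 is highest in C1q macrophages among leukocytes and near 0 in B and T cells.

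The question put to the comparison of the libraries was whether blockade of LAIR1 went with other RNA levels of its signaling partners. Over all kept cells Ptpn6 stood at 130 CPM with h219-LLG and 131 CPM with control antibody, a ratio of 0.992 (0.956 to 1.03). Ptpn11 had 34.0 and 37.3 CPM, a ratio of 0.910 (0.847 to 0.977), and Inpp5d had 120 and 130 CPM, a ratio of 0.925 (0.890 to 0.961). The 3 phosphatases were thus even or slightly lower with h219-LLG. Csk had 116 CPM with h219-LLG and 101 CPM with control antibody (ratio 1.15, 1.10 to 1.20), Syk had 168 and 156 CPM (1.08, 1.04 to 1.11) and Creb1 had 69.5 and 59.1 CPM (1.18, 1.12 to 1.24). These 3 ratios were above 1 beyond counting error and small beside the 1.5-fold that was taken as the mark. Whether they exceed the spread between mice cannot be seen with 1 library per group. All genes leaned the same way, since 58.8% of the 11408 genes with at least 100 UMIs had a ratio above 1. Their median log2 ratio was 0.06, against 0.11 for Syk, 0.20 for Csk and 0.23 for Creb1.

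Camk1 was the one member past 1.5-fold over all kept cells, against 11% of the 11408 genes with at least 100 UMIs (6.66% higher and 4.34% lower with h219-LLG). It had 548 UMIs (11.6 CPM) with h219-LLG and 299 UMIs (7.57 CPM) with control antibody, a ratio of 1.54 (1.33 to 1.77). More of the h219-LLG library consisted of the cells that hold Camk1, as gated monocytes and macrophages gave 8.27% of its UMIs against 5.36% with control antibody, and ungated cells with at least 2 UMIs of the macrophage panel gave 16.2% against 12.5%. When the gates were given the same weights in both libraries the ratio was 1.08 (0.869 to 1.34), and within C1q macrophages it was 1.09 (0.779 to 1.55). Both values leave out the ungated cells. Those with the macrophage panel held 48.5% of the Camk1 UMIs with h219-LLG and 34.4% with control antibody. In the ungated cells with the macrophage panel Camk1 remained higher with h219-LLG, at 34.8 CPM in 401 cells against 20.9 CPM in 255 cells with control antibody (ratio 1.67, 1.33 to 2.12), whereas in the other ungated cells it was lower, at 3.39 CPM against 7.32 CPM with control antibody (0.462, 0.292 to 0.718). A single cell with 125281 UMIs in all held 16 of the 548 Camk1 UMIs with h219-LLG, and one with 286202 UMIs held 24 of the 299 with control antibody. Without both cells the ratio over all kept cells was 1.61. It was 1.07 when every cell counted equally.

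For the other members the same weights changed little. The standardized ratio was 0.950 for Ptpn6 (0.907 to 0.995), 0.904 for Ptpn11 (0.823 to 0.992), 0.882 for Inpp5d (0.843 to 0.924), 1.14 for Csk (1.08 to 1.20), 1.08 for Syk (1.04 to 1.12) and 1.18 for Creb1 (1.10 to 1.26). The directions over all kept cells were therefore also those within a fixed mix of gates.

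Within gates, 0 of the 45 measured ratios of the members passed 1.5-fold in either direction. Of 39713 ratios of all genes in the same 9 gates, 10.5% did (5.7% higher and 4.84% lower with h219-LLG). That share was not matched for abundance, and counting error moves the ratios of genes with few UMIs further. The members and all genes are therefore not compared at equal precision. A ratio was measured where a gate had at least 50 cells in each library and the gene at least 100 UMIs over both, which 45 of 63 possible combinations met. The members' ratios lay between 0.683 (Inpp5d in patrolling monocytes) and 1.46 (Csk in C1q macrophages), and 25 were above 1. The median log2 ratio of all genes lay between -0.01 and 0.07 in these gates. It was highest in C1q macrophages, the gate of the members' highest ratio, where 56.5% of all genes had a ratio above 1 and 14.8% were past 1.5-fold higher against 4.98% lower.

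Creb1 was higher with h219-LLG in each of the 7 gates in which it was measured. CD4 naive T cells had 66.9 CPM with h219-LLG (57.9 to 76.8) and 47.8 CPM with control antibody (39.6 to 57.2), a ratio of 1.40. CD8 effector and memory T cells had 67.0 CPM (61.3 to 73.1) and 50.3 CPM (44.1 to 57.1), a ratio of 1.33. In 4 of the 7 gates the interval of the ratio lay above 1, and in NK cells the ratio was 1.02. Of all genes measured in the same gates, between 50.8% and 53.9% had a ratio above 1. In the 11 gates with too few cells or UMIs to be measured, 8 ratios were below 1 and 3 above, and the interval of each spanned 1. Tregs had 77.4 CPM in 38 cells with h219-LLG and 111 CPM in 82 cells with control antibody (ratio 0.699, 0.441 to 1.08), and Spp1 or Arg1 macrophages had a ratio of 2.31.

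Csk was higher with h219-LLG in 8 of 9 gates. CD4 memory T cells had 116 CPM with h219-LLG and 85.3 CPM with control antibody (ratio 1.36, 1.10 to 1.69), and C1q macrophages had 97.2 and 66.6 CPM (1.46, 1.03 to 2.11). The exception was NK cells, with 78.9 CPM (33 UMIs) against 115 CPM (73 UMIs) with control antibody, a ratio of 0.686 (0.440 to 1.05). Classical monocytes, with 154 cells but only 42 with control antibody, had 121 CPM with h219-LLG and 80.1 CPM with control antibody (1.51, 1.08 to 2.15). Ratios in C1q macrophages depend on which cells carry the weight. As ratios of means over cells they were 2.85 for Csk, 1.69 for Syk and 1.56 for Inpp5d. Median depth in this gate was 7515.5 UMIs with h219-LLG and 4661 UMIs with control antibody.

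Syk was above 1 in each of its 4 measured gates, at 1.04 and 1.12 in Fcer2a+ and Fcer2a- B cells, 1.29 (1.03 to 1.62) in patrolling monocytes and 1.27 (0.984 to 1.66) in C1q macrophages. Plasmacytoid dendritic cells, which were too few with h219-LLG to be measured, had 235 CPM with h219-LLG and 271 CPM with control antibody (0.865, 0.676 to 1.10). The ungated cells without the macrophage panel had a ratio of 1.89 (1.69 to 2.11), with 101 CPM in 1692 cells and 53.6 CPM in 1342 cells, and since these cells are of mixed type, their makeup and the level within them cannot be told apart.

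**Figure D4:**
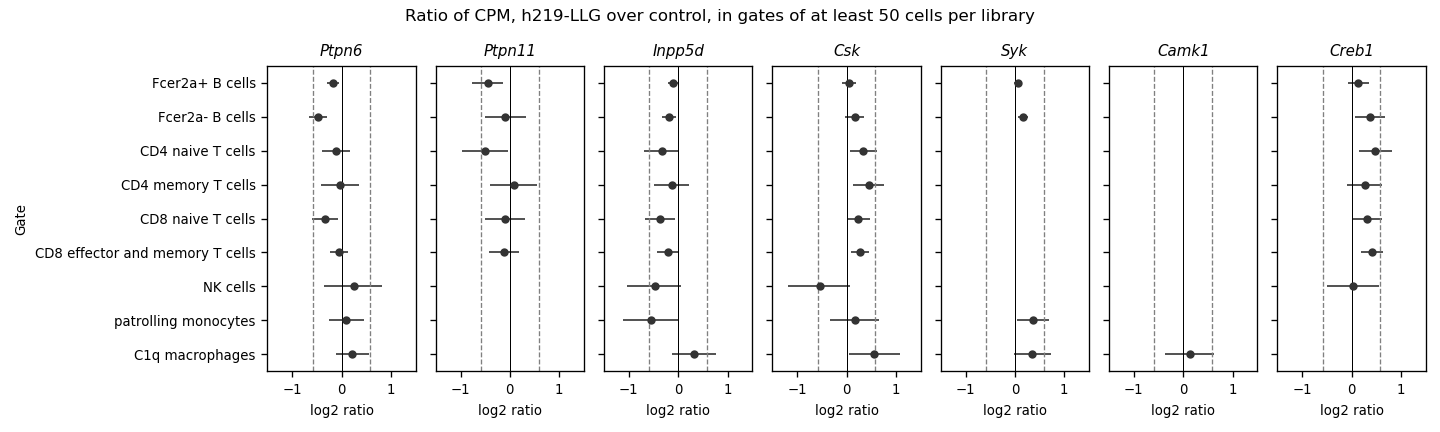
The log2 ratio of CPM, h219-LLG over control, for each member in the 9 gates with at least 50 cells per library, where at least 100 UMIs were counted over both, with 95% intervals for counting error. Dashed lines mark 1.5-fold in either direction, and all 45 points lie between them, with Creb1, Csk and Syk mostly right of 0 and Inpp5d and Ptpn11 mostly left of it.

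Inpp5d was below 1 in 8 of 9 gates. CD8 naive T cells had 45.5 CPM with h219-LLG (38.9 to 53.0) and 59.1 CPM with control antibody (51.2 to 68.0), a ratio of 0.770. Summed over all T cell gates, without equal weights for the gates, the ratio was 0.779 (0.709 to 0.856). The ratio was 0.793 in CD4 naive, 0.911 in CD4 memory and 0.862 in CD8 effector and memory T cells. CD4 memory T cells, with more Inpp5d than CD4 naive T cells, were 2.96% of kept cells with h219-LLG and 5.62% with control antibody. The part of this mix in the summed ratio was not tested. C1q macrophages went the other way, with 111 and 89.8 CPM (1.24, 0.912 to 1.71). Outside the measured gates, plasmacytoid dendritic cells had 101 CPM (37 UMIs in 40 cells) with h219-LLG and 160 CPM (217 UMIs in 111 cells) with control antibody, a ratio of 0.631 (0.433 to 0.898). Tregs had 72.1 and 127 CPM (0.567, 0.355 to 0.878).

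The interval of the ratio lay below 1 for Ptpn6 in 3 of 9 measured gates and for Ptpn11 in 2 of 6. All of these were gates of B cells or naive T cells. For Ptpn6 the interval spanned 1 in CD4 naive T cells (0.921). For Ptpn11 it spanned 1 in Fcer2a- B cells (0.937) and CD8 naive T cells (0.935). Ptpn6 in Fcer2a- B cells had 149 CPM with h219-LLG (136 to 163) and 207 CPM with control antibody (189 to 225), a ratio of 0.722, and in Fcer2a+ B cells 206 and 233 CPM, a ratio of 0.886. Summed over all gated monocytes and macrophages, without equal weights for the gates, it was higher, at 231 and 200 CPM (1.15, 1.02 to 1.30). Ptpn11 was at 0.732 (0.587 to 0.912) in Fcer2a+ B cells and 0.706 (0.510 to 0.974) in CD4 naive T cells, and above 1 in 1 of its 6 measured gates, CD4 memory T cells, at 1.05. Other RNA also differed in these B cells. Hbb-bs, a hemoglobin gene of red blood cells, was at 10.0 CPM with h219-LLG and 493 CPM with control antibody in Fcer2a+ B cells and at 2099 and 1733 CPM in Fcer2a- B cells, and the heat shock gene Hspa1a was at 56.0 and 221 CPM in Fcer2a+ and 25.4 and 279 CPM in Fcer2a- B cells. The part of these differences in the ratios of the members was not tested.

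The neighbors of the members in the pathway were described by 8 lists in the 6 gates with at least 100 cells in each library, all of B or T cells. There, 9.72% of 33726 gene ratios passed 1.5-fold (5% higher and 4.71% lower with h219-LLG). ITIM effectors and adaptors such as Dok and Grb2 proteins had 0 of 41 ratios past 1.5-fold higher, 2 lower and a median log2 ratio of 0.01. The 2 were Sh2b3, an adaptor that restrains cytokine signaling, at 0.667 in Fcer2a+ B cells and 0.558 in CD8 effector and memory T cells. Of the other tyrosine phosphatases, 4 of 62 ratios were past the mark higher and 4 lower, with a median of 0.06. Ptpn22, a phosphatase that pairs with Csk to restrain Src family kinases, was lowest in 3 of the 6 gates, at 65.2 CPM with h219-LLG and 159 CPM with control antibody in Fcer2a+ B cells (ratio 0.409, 0.359 to 0.465) and 82.5 and 153 CPM in Fcer2a- B cells (0.538). Dusp6, a phosphatase of ERK, was highest in 3, with 20.6 and 8.06 CPM in CD8 naive T cells (2.55, 1.63 to 4.12).

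Kinases of the Src and Syk families with their adaptors had 1 of 41 ratios past the mark higher and 3 lower, with a median log2 ratio of -0.07. Cblb, an E3 ligase that restrains antigen receptor signaling, was the lowest in 5 of 6 gates, at 94.1 CPM with h219-LLG and 150 CPM with control antibody in CD8 effector and memory T cells (0.626). Proximal ITAM signaling had 5 of 64 ratios past the mark higher and 7 lower, with a median of 0.02. Within it Lcp2, the adaptor SLP-76, was highest in 2 gates, with 119 CPM with h219-LLG and 68.3 CPM with control antibody in CD4 naive T cells (1.74).

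The PI3K and AKT list had 1 of 50 ratios past the mark higher and 4 lower, with a median log2 ratio of 0.03. Pik3ap1, the B cell adaptor BCAP that brings PI3K to the membrane, was at 25.2 CPM with h219-LLG and 50.5 CPM with control antibody in Fcer2a+ B cells (0.499) and 20.2 and 41.9 CPM in Fcer2a- B cells (0.483). The calmodulin kinase list had 4 of 57 ratios past the mark higher and 0 lower, with a median of 0.11. Camkk2, the kinase that activates Camk1 and Camk4, was highest in 2 gates, with 34.7 and 21.3 CPM in Fcer2a- B cells (1.62, 1.16 to 2.30) and 10.8 and 6.49 CPM in CD8 effector and memory T cells (1.67, 1.09 to 2.61). Calm2, a calmodulin gene, was lowest in 5 gates, at 0.727 in CD8 naive T cells.

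Of all ratios of the 8 lists in these 6 gates, the one furthest from 1 belonged to a relative of Creb1. Crem, which encodes an inducible member of the CREB family whose short forms repress cAMP-driven genes, stood at 47.7 CPM (2248 UMIs) with h219-LLG and 138 CPM (5456 UMIs) with control antibody over all kept cells, a ratio of 0.345 (0.328 to 0.363). It was the lowest of the CREB family and coactivator list in 6 of 6 gates. CD8 naive T cells had 43.9 CPM with h219-LLG and 151 CPM with control antibody (0.291, 0.242 to 0.348), CD8 effector and memory T cells 38.3 and 117 CPM (0.327) and Fcer2a+ B cells 53.5 and 161 CPM (0.331). The difference also appeared in C1q macrophages, at 19.7 and 51.1 CPM (28 and 33 UMIs), whereas in NK cells, with 83.6 and 107 CPM, the interval of the ratio spanned 1 (0.781, 0.504 to 1.19). The ratio of Creb1 itself was above 1 in those B and T cell gates, so the pair stood on opposite sides. Of the 59 ratios of this list, 3 were past the mark higher and 7 lower, of which Crem gave 6 and the coactivator Crtc2 the other, with a median log2 ratio of -0.09. The 3 higher ones were Rps6ka1, a kinase that phosphorylates Creb1, at 51.0 CPM with h219-LLG and 27.3 CPM with control antibody in CD4 naive T cells (1.87, 1.39 to 2.52) and at 1.56 in Fcer2a+ B cells, and Prkacb, a catalytic subunit of protein kinase A, at 75.4 and 42.3 CPM in Fcer2a- B cells (1.78, 1.41 to 2.26).

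**Figure D5:**
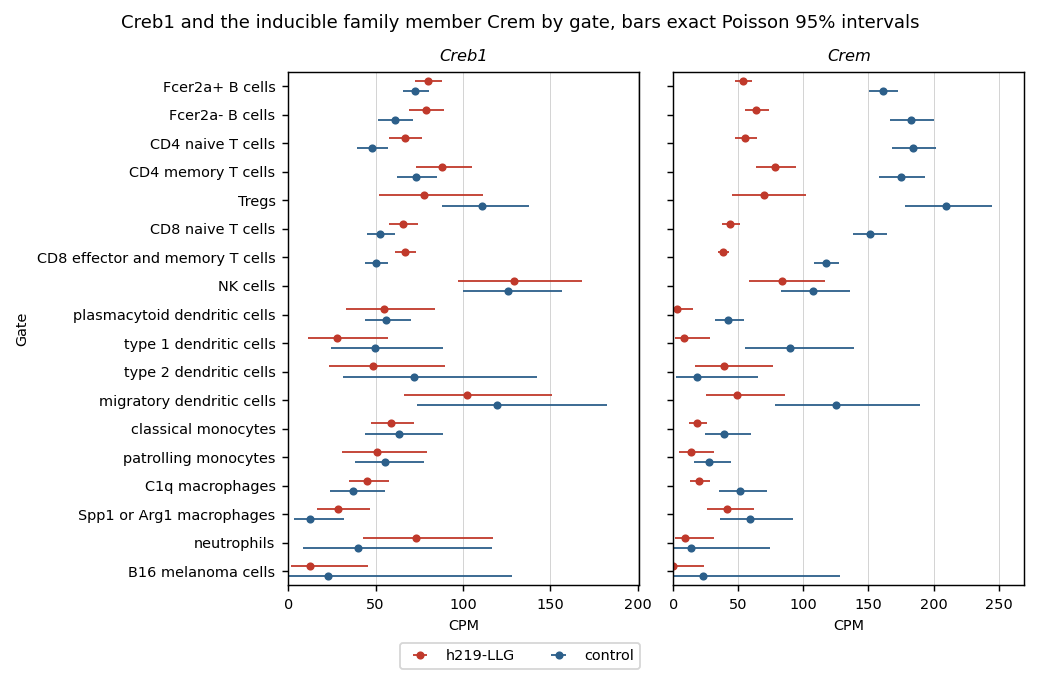
CPM of Creb1 (left) and Crem (right) in 18 gates, for the h219-LLG library (red, upper point of each row) and the control library (blue, lower point), with exact Poisson 95% intervals. Crem with h219-LLG is well below control in every B and T cell gate, and Creb1 is close between the libraries and slightly higher with h219-LLG in B cells and in T cells other than Tregs.

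Early genes that Creb1 can drive were lower on balance in the 6 B and T cell gates. There, 27 of 77 ratios were past the mark lower and 5 higher, with a median log2 ratio of -0.25. Among smaller gates, C1q macrophages had 4 of 11 ratios past the mark higher, 2 lower and a median of 0.12. All genes measured in that gate leaned the same way, with 14.8% past the mark higher, 4.98% lower and a median of 0.07. The median of the early genes was -0.21 in NK cells and -0.16 in patrolling monocytes. Nr4a3, an orphan nuclear receptor induced by antigen receptor and cAMP signals, was the lowest in 4 of 6 gates and past the mark in each of the 6 gates in which it was measured (NK cells included), with 32.8 CPM with h219-LLG and 81.7 CPM with control antibody in CD8 effector and memory T cells (0.401, 0.341 to 0.472). In those cells 7 of 13 early genes were past the mark lower and 0 higher, against 4.11% lower, 5.48% higher and 9.59% in either direction of all genes measured there. Among these 7 were Nr4a2, a relative of Nr4a3, with a ratio of 0.456 and Sik1, a kinase that restrains CREB coactivators, with a ratio of 0.631. Fos went the other way and was the highest in 4 of 6 gates, with 607 and 274 CPM in Fcer2a+ B cells (2.21, 2.08 to 2.36). The early genes therefore did not move as 1 group. Early genes are also known to respond to handling of tissue, and the heat shock gene Hspa1a was at 88.9 CPM with h219-LLG and 233 CPM with control antibody over all kept cells. In CD4 memory T cells, where Crem was at 0.445, Hspa1a had 21.3 CPM with h219-LLG and 232 CPM with control antibody (0.0918, 0.0609 to 0.133). In CD8 effector and memory T cells, where Crem was at 0.327, Hspa1a had 8.33 CPM with h219-LLG and 11.1 CPM with control antibody (0.750, 0.512 to 1.10), and in CD8 naive T cells it had 2.44 and 8.06 CPM (9 and 27 UMIs). The part of handling in the values of Crem and the early genes was not tested.

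Likeness of levels was measured by Pearson's correlation of log2(CPM + 10) over 18 profiles, the 9 gates with at least 50 cells in each library taken in both libraries, among 5530 genes. Points of 1 library share its depth and preparation, so the values describe these libraries only. Syk was most like Napsa (0.97), Gm26532 (0.97) and Sypl (0.96), and Inpp5d most like Tcf4 (0.96), Pkig (0.96) and Mef2c (0.96), the first and last of which encode transcription factors of B cells among other cells. Ptpn6 was most like Themis2 (0.96), which encodes a signaling protein of B cells and macrophages, Ptprj (0.95), a receptor tyrosine phosphatase, and H3f3a (0.95). Camk1 was most like Bsg (0.97), Vps29 (0.97) and Mydgf (0.97), Creb1 most like Nsmaf (0.94), Rbl2 (0.93) and Dock2 (0.92), and Csk most like Sp1 (0.94) and Rad17 (0.91). The flat profile of Ptpn11 gave the lowest values, with Csnk2a2 (0.83), Arf4 (0.82) and Gadd45b (0.82). Among the members themselves the closest pairs were Inpp5d with Syk (0.91) and Ptpn6 with Syk (0.90), and the least alike were Camk1 with Creb1 (-0.26).

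Reads of mouse Lair1 remained in these mLAIR1-/- mice, and reads of the 3' end do not check a deletion elsewhere in the gene. They were most frequent in plasmacytoid dendritic cells, the gate in which Ptpn6 was highest, at 551 CPM with h219-LLG and 522 CPM with control antibody.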

How the data were processed

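The authors counted UMIs with Cell Ranger 5.0.0 on mm10 and deposited raw counts for barcodes already called as cells, 8807 with h219-LLG and 6133 with control antibody. The members, gates and lists were chosen with earlier results of these data known. Cells passed filters of 500 UMIs, 200 genes and 10% mitochondrial UMIs, and were gated on marker UMIs (B cells, for example, by at least 2 UMIs of a B cell panel that includes Cd79a and Ms4a1, without T cell UMIs). Cells passing more than 1 gate, 2 in each library, were left ungated, which with the markers barred by each gate is how doublets were handled. A planned gamma-delta T cell gate was not analysed here.

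UMIs were summed per library and gate and divided by all UMIs of the gate to give CPM, with exact Poisson intervals. Ratios are h219-LLG over control, with intervals from the binomial split of counts. Shares of cells have exact Clopper-Pearson intervals. Standardized ratios weight each gate by its share of gated UMIs over both libraries. Gates count as apart where their intervals did not overlap, in the same order, in both libraries. The named genes are the 7 members, the genes of highest and lowest ratio of each list in gates of at least 100 cells, and the 3 genes most like each member with at least 1000 UMIs. A few genes that this rule names are not reported here. Zap70, Camk4, Camk2d, Camk1d, Nr4a2, Sik1, Crtc2, Hspa1a, Hbb-bs and Lair1 were named after their values were seen, and sums over lineages were added then too. The ratio and its interval were tested on counts simulated with Poisson error only, the error that the interval assumes. Spread between cells, mice or libraries was not part of that simulation. Promoters and gene positions are from RefSeq (7 of 7 members matched) and GENCODE vM21. Python 3.11.15, numpy 2.4.6, scipy 1.17.1 and matplotlib 3.10.9 were used.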

Additional observations from a re-analysis of the deposited data

How the results depend on the processing

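No paired analysis was possible because each group is 1 library. Doublet scores, filters on depth and mitochondrial UMIs, other scalings and stricter gates were tried, and stricter gates give no value over all kept cells. Of 70 alternative values of the standardized ratios, 70 stayed inside the interval of the reported value, and of 386 values within gates 382 did. Over all kept cells 60 of 70 did. The others were, with under 5% mitochondrial UMIs, 1.04 for Ptpn6, 0.877 for Inpp5d and 1.00 for Syk. With median-of-ratios size factors they were 0.949 for Ptpn6, 0.885 for Inpp5d, 1.10 for Csk and 1.03 for Syk. As a mean over cells they were 0.941 for Ptpn6 and 1.07 for Camk1, which was 1.27 without the 5% of cells with most UMIs. Ptpn6 and Syk thus crossed 1 with the 5% limit, and the standardized Camk1 ratio did so, at 0.940, without the deepest cells. Camk1 over all kept cells also lost its place past 1.5-fold without cells of high doublet score (1.45) and with median-of-ratios size factors (1.47). The cause was not tested. Crem stayed between 0.330 and 0.357.

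The count of member ratios past 1.5-fold was 0 higher and 0 lower. Without the 5% of cells with most UMIs it became 1 higher (Ptpn6 in C1q macrophages, 1.82). As a mean over cells it became 4 higher (Csk, Syk and Inpp5d in C1q macrophages and Creb1 in CD4 naive T cells) and 1 lower. The count became 1 lower with under 5% mitochondrial UMIs (Ptpn11 in Fcer2a+ B cells, 0.619) and 1 lower with stricter gates (Inpp5d in NK cells, 0.654). It became 6 higher and 2 lower with no minimum beyond 1 UMI in each library, and 8 higher and 9 lower at marks of 25% higher and 20% lower. With gates of at least 30 cells in each library, an alternative chosen after seeing the data, it was 1 higher and 2 lower. Gates under 50 cells in a library, among them all dendritic cells, limit what can be seen, and with 1 library per group no difference can be set against a spread between mice.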
